A study of Mus musculus with 2 samples.

Results

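The genes described here encode Polycomb repressive complex 2 (PRC2) and its close partners: the catalytic paralogues Ezh1 and Ezh2, the core subunits Eed and Suz12, the histone-binding subunits Rbbp4 and Rbbp7, the accessory subunits Jarid2 and Mtf2, and, from Polycomb repressive complex 1 (PRC1), Rnf2 and Cbx7. They were chosen by name, and all 10 had at least 1 probe set named to that gene alone, among 10313 genes measured. Expression was measured on 2 Affymetrix arrays, 1 from mouse embryonic stem cells (ESCs) overexpressing lincU, a long noncoding RNA, and 1 from control ESCs. Both cultures were of 46C, an ESC line with a green fluorescent protein reporter at Sox1. Medium for both held 15% serum and leukaemia inhibitory factor at 1000 U/ml, and the feeder layer beneath the cells was taken off before RNA extraction. The sources used here do not give how lincU was delivered or what the control cells received. The comparison asks how transcript levels differ in cells with raised lincU. With 1 array per group, nothing below was tested, no standard error can be given, and each difference describes these 2 arrays.

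PRC2 methylates histone H3 at lysine 27, a mark of repressed chromatin. EZH2 or EZH1 carries the catalytic SET domain and needs EED, which binds the methylated product and stimulates the enzyme, and SUZ12, the scaffold on which accessory subunits assemble. Those subunits define alternative forms of the complex, one with MTF2 or its relatives, which bind CpG-rich DNA, and one with JARID2 and AEBP2. PRC1 contains RNF2 (RING1B) or RING1, which ubiquitinate histone H2A, and in its canonical forms a CBX protein that binds methylated lysine 27. In ESCs both complexes occupy the CpG islands of silent developmental genes.

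Transcripts of the PRC2 core were close to equal on the 2 arrays, apart from Suz12 and the fainter Ezh1, which both had higher signals in lincU-overexpressing cells. Of the 10 genes 8 were bright, meaning that the larger of the 2 signals reached the median of named probe sets on its own array, a log2 signal of 7.90 for overexpression and 7.96 for control. None of the 8 differed by 2-fold or by 1.5-fold, against 2.83% and 11.3% of all 5609 bright genes. Their log2 differences, overexpression minus control, ran from -0.09 for Ezh2 to 0.38 for Suz12, with a median of 0.02, and the median over all bright genes was 0.00. In size their median difference was 0.09, against 0.19 for all bright genes. The only repeated measurements were separate probe sets for the same gene. In the 1732 genes that had more than 1 bright probe set, differences varied within a gene with an SD of 0.23, which holds no variation between cultures. That SD fell from 0.32 in the dimmest 433 of these genes to 0.16 in the brightest 433, whose mean signals began at 11.31. The probe sets taken for the 8 all had signals above 11.31. The shares and medians over all bright genes are not matched for signal, so they do not show that the 8 were unusually steady. Suz12 alone of the 8 bright genes exceeded the SD of 0.23, and 58.0% of all bright genes lay under it. Of the 8, 4 were higher and 4 lower, where 50.2% and 49.8% of all bright genes were higher and lower, a split that depends on scaling: 5 were higher with arrays centred on their medians and 3 with quantile normalization.

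**Figure D1:**
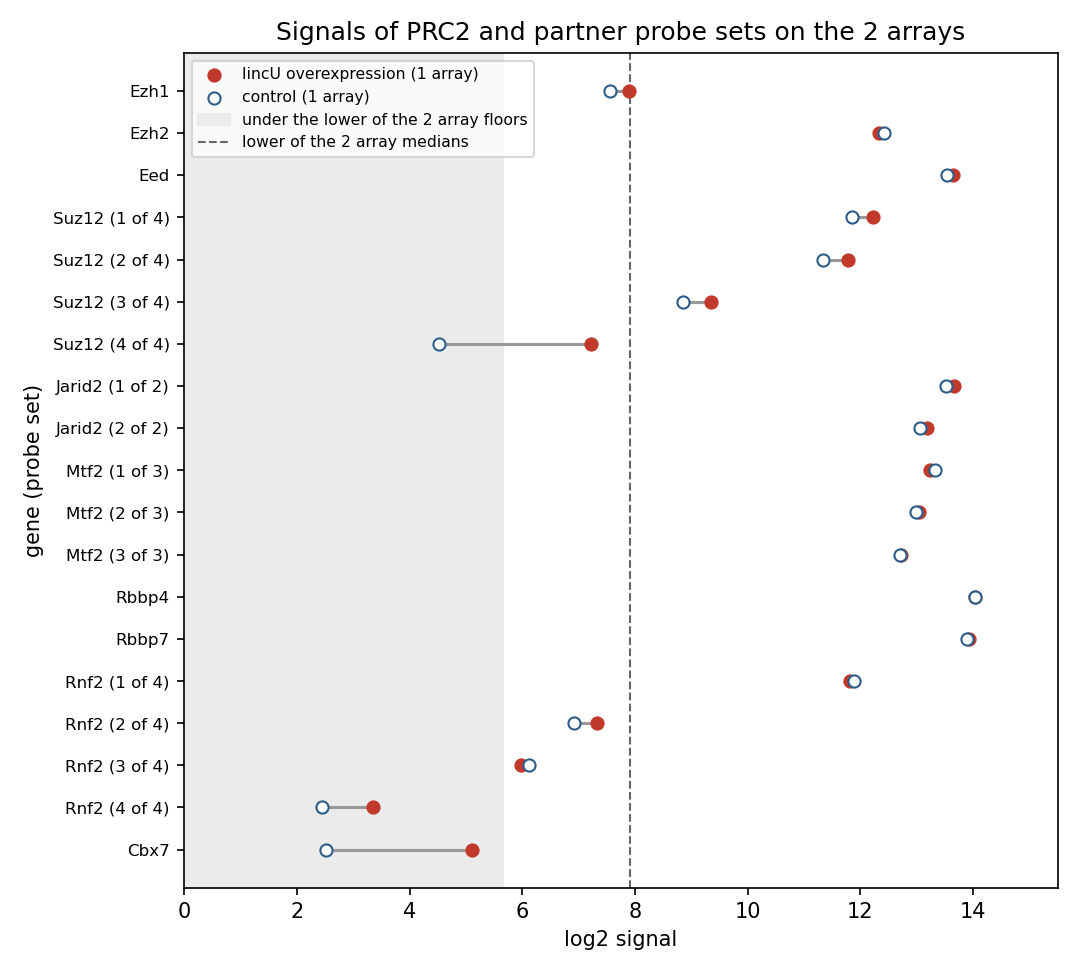
Log2 signal (horizontal axis) of each of the 19 probe sets of the 10 genes (vertical axis), with filled red points for lincU overexpression and open blue points for control, 1 array each. Grey shading marks signals under the lower of the 2 array floors and the dashed line the lower of the 2 array medians. The points of a pair lie close together for most bright probe sets, while the overexpression point lies to the right for each of the 4 Suz12 probe sets.

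The catalytic subunits were read by 1 probe set each. Ezh2, the methyltransferase of proliferating cells, had a log2 signal of 12.33 in overexpressing cells and 12.43 in control cells. That signal exceeded those of 93.5% of named probe sets on the overexpression array and 94.2% on the control array. Its log2 difference of -0.09 was exceeded in size by most bright genes, 71.9% of which differed by as much or more. Ezh1, the paralogue that predominates in many non-dividing tissues, had a log2 signal of 7.89 in overexpressing cells and 7.55 in control cells. It stood in the middle of the arrays, above 49.9% and 45.3% of named probe sets, and missed the bright class narrowly. Its log2 difference was 0.35. The signal of a probe set depends on its probes as well as on the transcript, so these levels give no ratio of Ezh2 to Ezh1 transcripts. Each probe set can be set against itself, and by that measure the ratio of Ezh2 to Ezh1 was 0.736 times as large in overexpressing as in control cells, a log2 shift of -0.44. That shift comes mostly from the dimmer Ezh1 probe set, of a type (_a_at) that can bind several transcripts of a gene, and the SD between probe sets was 0.32 in the dimmest 433 of the genes used for it.

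The scaffold gene Suz12 had the largest difference of the bright members and was read by 4 probe sets, all with higher signal in overexpressing cells. The brightest gave log2 signals of 12.23 in overexpressing and 11.85 in control cells. A second gave 11.78 in overexpressing and 11.33 in control cells, and the third 9.35 in overexpressing and 8.85 in control cells. These 3 bright probe sets thus differed by 0.38, 0.44 and 0.50, a mean of 0.44 with an SD of 0.06 between probe sets. They read the same RNA, and the brightest and the third are listed with the same source sequence, so they are not independent measurements. All 3 are of a type (_s_at) that can bind several related transcripts. The fourth, without that property, was dim, at 7.22 in overexpressing cells and 4.53 in control cells, the last under the floor. The floor, to which lower signals were raised, is the signal that 25% of named probe sets do not reach, 5.65 for overexpression and 5.73 for control. With control raised to its floor this probe set differed by 1.49, a size that depends on where the floor was placed. Over bright genes of every signal level, 23.6% differed by 0.38 or more in either direction, a share not matched to the signal of Suz12. Eed, the reader of the methyl mark, had log2 signals of 13.64 in overexpressing and 13.54 in control cells, a difference of 0.10 on its only probe set.

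Suz12 and Ezh1, the members with differences above the SD between probe sets, both lie on chromosome 11. The 485 bright genes of that chromosome had a median difference of -0.01 and 49.1% of them were higher. Among the 20 bright genes nearest to Suz12 in gene order, 9 were higher, their median was -0.02, and none had a difference as high as that of Suz12. The highest of them stood at 0.32. This depends on the width of the window. Shortly beyond it Heatr6 at 0.65 and Bcas3 at 1.11 were higher than Suz12, and Car4 stood at -2.24. None of the 10 genes lay in the stretches of chromosomes 14 and 6 along which neighbouring genes of these arrays differed together. Ezh2 lies on chromosome 6 outside its stretch, where 178 bright genes had a median of 0.02. These positional values were examined after the differences were known.

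**Figure D2:**
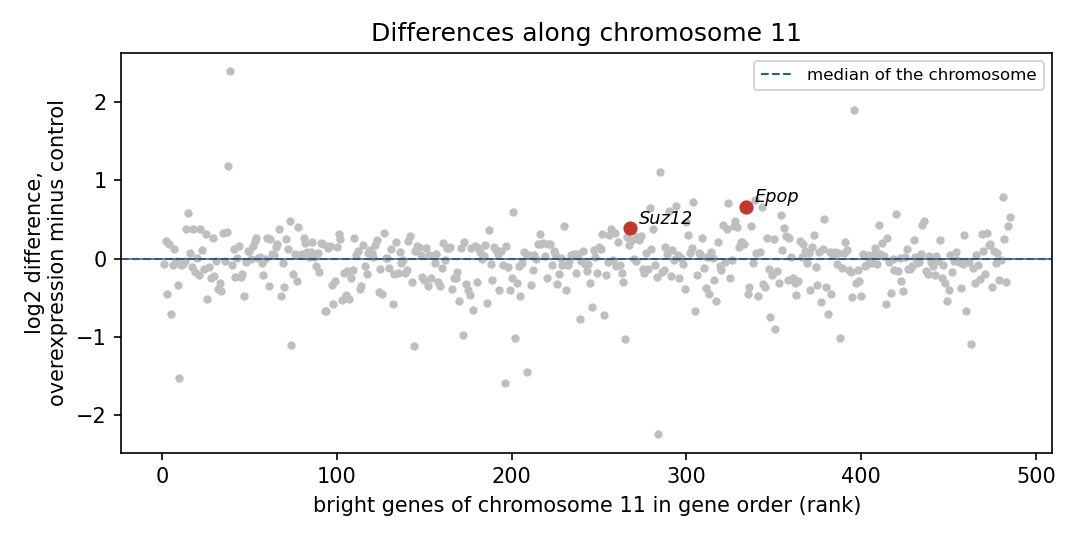
Log2 difference, overexpression minus control (vertical axis), of the 485 bright genes of chromosome 11 in gene order (horizontal axis, rank), 1 grey point per gene. Suz12 and the PRC2-associated gene Epop are in red at 0.38 and 0.66, and the dashed line is the chromosome's median of -0.01.

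The promoters of this pair are shown because they are the members whose signals differed most and because CpG density is the feature that Polycomb accessory subunits read. The sequences are the 250 bases before the annotated start in RefSeq, assembly GRCm38.p6, on the strand of the gene, with CpG dinucleotides in capitals. Suz12 is chr11:79992856-79993105 on the plus strand and Ezh1 chr11:101226464-101226713 on the minus strand.
Suz12: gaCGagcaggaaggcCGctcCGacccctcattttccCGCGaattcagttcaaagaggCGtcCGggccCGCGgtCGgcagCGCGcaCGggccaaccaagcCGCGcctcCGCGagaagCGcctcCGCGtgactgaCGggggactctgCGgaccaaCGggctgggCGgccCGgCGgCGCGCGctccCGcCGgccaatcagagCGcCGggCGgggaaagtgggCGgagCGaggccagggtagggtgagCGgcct
Ezh1: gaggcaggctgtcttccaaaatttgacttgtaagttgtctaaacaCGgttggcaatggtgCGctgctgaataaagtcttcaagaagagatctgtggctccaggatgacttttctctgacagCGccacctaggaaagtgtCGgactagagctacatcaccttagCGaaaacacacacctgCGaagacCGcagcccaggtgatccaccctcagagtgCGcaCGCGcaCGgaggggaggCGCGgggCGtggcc

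The Suz12 window held 37 CpG dinucleotides, more than 96.8% of the 8257 measured genes with a promoter in the table, whose median was 14. The Ezh1 window held 14, at that median, so the 2 members with the largest differences do not share this feature. Over the 10 genes, all with a promoter in the table, the count ran from 12 for Eed to 37 for Suz12 with a median of 23, using the first listed start of each gene. E2F factors, which drive genes of the cell cycle, are known regulators of PRC2 genes. The E2F motifs TTTCCCGC and TTTGGCGC, which do not overlap each other, were searched on both strands of these windows. Of the 10 genes only Suz12 held one, TTTCCCGC on the strand of the gene, beginning 219 bases before the start. Of all 8257 promoters 2.23% held either motif. Such a match is a description of the letters in this window.

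The histone-binding subunits RBBP4 and RBBP7 are WD-repeat proteins shared with other chromatin complexes, among them histone deacetylase complexes. Rbbp4 had a log2 signal of 14.03 in overexpressing cells and 14.03 in control cells, above 99.0% of named probe sets on the overexpression array and 99.2% on the control array. Rbbp7 had 13.93 in overexpressing and 13.90 in control cells, a difference of 0.03. The Rbbp4 probe set is of a type (_x_at) that can bind unrelated or related transcripts, and whether it binds those of Rbbp7 was not tested. The ratio of Rbbp4 to Rbbp7, taken from each probe set against itself, was 0.978 times as large in overexpressing as in control cells.

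Both accessory subunits gave repeated readings that lay close together, though the probe sets of each gene are listed with the same source sequence. Jarid2, which helps to recruit PRC2 and is itself methylated by it, had log2 signals of 13.67 in overexpressing and 13.53 in control cells. Its second probe set gave 13.19 in overexpressing and 13.05 in control cells, so both differed by 0.14. Mtf2, a DNA-binding subunit also known as PCL2, was read by 3 bright probe sets, which differed by -0.08, 0.02 and 0.05. The brightest had a log2 signal of 13.24 in overexpressing and 13.32 in control cells. The signs of the 3 probe sets were mixed, and their mean difference was 0.00 with an SD of 0.07. In the brightest 433 of the genes used for it, where Jarid2 and Mtf2 lie, the SD between probe sets was 0.16.

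**Figure D3:**
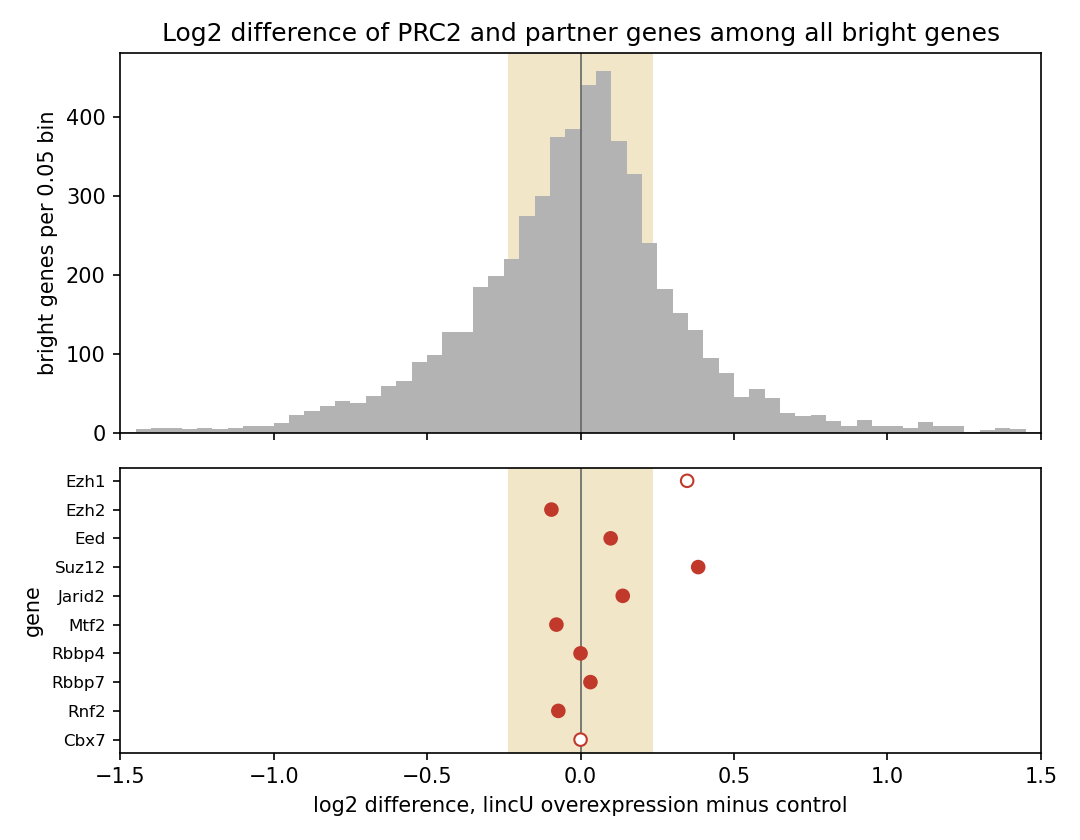
The upper panel is a histogram of the log2 differences, overexpression minus control, of all bright genes in bins of 0.05 (45 genes beyond 1.5 in either direction are off the axis), and the lower panel gives the 10 genes on the same axis, filled where bright and open where dim. The shaded band is 1 SD between probe sets of a gene, 0.23 to either side of 0. Among filled points only Suz12 lies outside the band, and Ezh1 lies outside it as an open point. Cbx7, under the floor on both arrays, is drawn at 0 by the floor rule, which is not a measured difference.

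Of the PRC1 partners, Rnf2, the ubiquitin ligase, had a log2 signal of 11.81 in overexpressing and 11.89 in control cells on its only bright probe set, a difference of -0.07. Its other 3 probe sets were dim and disagreed: one stood at 7.32 in overexpressing and 6.92 in control cells, another at 5.98 in overexpressing and 6.12 in control cells, and one was under the floor on both arrays. Cbx7, the canonical PRC1 subunit known as the main CBX protein of undifferentiated ESCs, was also under the floor on both arrays, with log2 signals of 5.10 in overexpressing and 2.51 in control cells. These values have no order, and no difference is read for Cbx7, which the floor rule sets to 0. A low signal on this one _s_at probe set does not show that the transcript is absent.

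The wider Polycomb machinery was described by gene lists and is counted here among bright genes, of which 4.65% in the whole table were higher by 1.5-fold or more and 6.69% lower by as much. Of the other PRC2 subunits 5 of 7 were measured and 2 were bright. Epop, a subunit of the MTF2 form that links PRC2 to elongin, had log2 signals of 11.22 in overexpressing and 10.57 in control cells, 1.58-fold higher on a probe set of type _s_at. Epop lies on chromosome 11 too, and of the 20 bright genes nearest to it 13 were higher, with a median of 0.16, and 3 had differences as high or higher. Aebp2, of the JARID2 form and named after its value was seen, differed by -0.10, and lay in the chromosome 6 stretch whose bright genes had a median of 0.37. The 3 dim members, given after their values were seen, were mixed. Phf1, a relative of Mtf2, had log2 signals of 7.79 in overexpressing and 6.64 in control cells, and Phf19, another relative, 6.32 in overexpressing and 6.90 in control cells. Lcorl, which encodes PALI2, had 6.45 in overexpressing and 7.62 in control cells.

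In the PRC1 core other than Rnf2, 5 of 7 genes were measured and all 5 were bright, with none past 1.5-fold in either direction. Of these 4 were lower and 1 was higher, but Pcgf1, Bmi1 and Ring1 were bright through the control array alone, so they had to be lower and their direction is no result. Pcgf2, at -0.36, and Pcgf6, at 0.0015, were bright on both arrays and are named after their values were seen. Pcgf1, of a variant PRC1 that KDM2B brings to CpG islands, differed by -0.43, at 7.63 in overexpressing and 8.06 in control cells. Bmi1 (PCGF4) differed by -0.37, at 7.64 in overexpressing and 8.01 in control cells. Ring1, the paralogue of Rnf2 and named after its value was seen, differed by -0.21, at 7.82 in overexpressing and 8.03 in control cells. Pcgf6 was lower with quantile normalization. The mean signals of the other 4 fall in the range where the SD between probe sets was 0.32.

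Of the CBX, PHC and SCM subunits of canonical PRC1, 8 of 10 were measured and 5 were bright, with 2 higher and 3 lower. Scmh1 was the only one past 1.5-fold, with a log2 signal of 8.48 in overexpressing and 9.14 in control cells, a difference of -0.66. Of the variant PRC1 subunits 11 of 21 were measured and 9 were bright, with a median of 0.00 among the bright and none past 1.5-fold. The largest difference there was that of Wdr5, a WD-repeat protein shared with H3K4 methyltransferase complexes, at 0.50 on each of its 2 probe sets. The brighter gave 12.11 in overexpressing and 11.62 in control cells. Yaf2 differed by -0.30 and -0.10 on its 2 bright probe sets.

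The widest spread among Polycomb genes was in the deubiquitinase complex PR-DUB and the DNA-binding complex PhoRC. Of 8 bright genes 2 were higher by 2-fold or more and 1 was lower by as much, against 1.53% and 1.3% of all bright genes. The 2 higher ones, Bap1, the H2A deubiquitinase, and Sfmbt1, lie in the proximal stretch of chromosome 14, whose 70 bright genes had a median of 1.08. Bap1 had log2 signals of 11.67 in overexpressing and 10.12 in control cells, and Sfmbt1 9.09 in overexpressing and 7.90 in control cells. Sfmbt1 was bright through the overexpression array alone, which fixes its direction. With the median of the stretch subtracted the pair stood at 0.48 and 0.11. Sfmbt2, the imprinted relative of Sfmbt1, was the lower one, at 9.75 in overexpressing and 11.83 in control cells. Mbd6, which binds the PR-DUB complex, stood at 7.54 in overexpressing and 8.37 in control cells, bright through the control array alone. Yy1, the DNA-binding subunit of PhoRC, named after its value was seen, differed by 0.03. The opposing H3K27 demethylases and trithorax H3K4 methyltransferase subunits had 10 bright genes of 11 measured, with a median of -0.16 among the bright. None was past 1.5-fold. Of the 10, 8 were lower and 2 higher (7 and 3 with quantile normalization), where 49.8% and 50.2% of all bright genes were lower and higher. Kmt2c and Setd1a had the largest differences of these, at -0.34 each. Of all bright genes 27.7% differed by as much as Kmt2c or more, so no direction is read from this list.

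**Figure D4:**
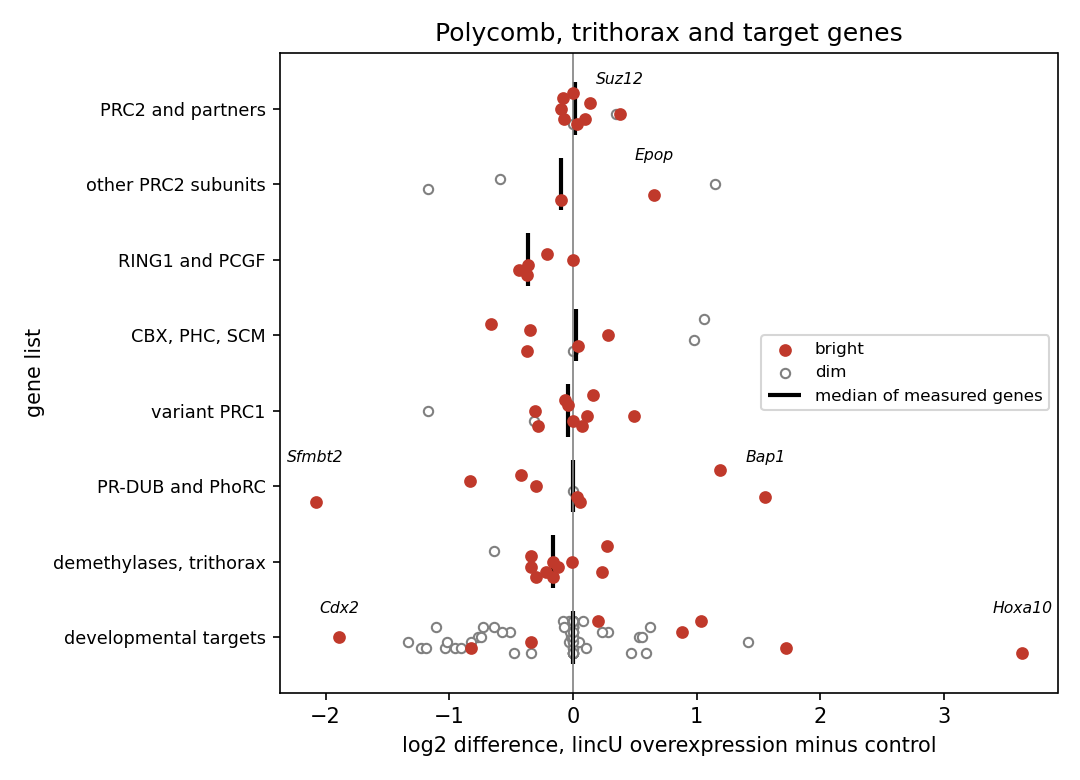
Log2 difference, overexpression minus control (horizontal axis), of the measured genes of 8 lists (vertical axis), filled where bright and open where dim, with a black bar at each list's median. Bright PRC2 and partner genes lie between -0.09 and 0.38, while Sfmbt2 at -2.08, Bap1 at 1.55, Cdx2 at -1.89 and Hoxa10 at 3.63 lie far from 0. Genes under the floor on both arrays are drawn at 0 by the floor rule and enter the medians at that value.

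Developmental regulators known as Polycomb targets in ESCs were mostly dim. Of 104 listed, 71 were measured and 8 were bright, 11.3% of them against 54.4% of all genes measured. Under the floor on both arrays were 28, or 39.4%, against 19.7% of all genes. Among the 8 bright targets 5 were higher and 3 lower, where 50.2% and 49.8% of all bright genes were higher and lower. By 2-fold or more, 3 of them were higher and 1 was lower, against 1.53% and 1.3% of all bright genes. The first 3 were the posterior homeobox genes Hoxa10 and Hoxa11 and the forkhead gene Foxd3, a regulator of pluripotent cells and neural crest. Hoxa11 had log2 signals of 8.12 in overexpressing and 6.40 in control cells, and Foxd3 9.32 in overexpressing and 8.29 in control cells. Hoxa10 gave 9.82 in overexpressing and 6.19 in control cells, on a single probe set of type _a_at. Cdx2, the trophoblast factor, was the gene at least 2-fold lower, at 6.76 in overexpressing and 8.65 in control cells. Hoxa10, Hoxa11 and Pax6, another of the 5 higher targets, were bright through the overexpression array alone and Cdx2 through the control array alone, which fixes their direction. Of all 5609 bright genes, 207 were bright through the overexpression array alone and 224 through the control array alone. Of the 4 targets bright on both arrays 2 were higher and 2 lower. Bmp4, a lower one named after its value was seen, differed by -0.83. It lies in another stretch of chromosome 14, whose 137 bright genes had a median of -0.59. Hoxa10 and Cdx2 were known from earlier results of these arrays. Of the 16 Hox genes measured, 7 were under the floor on both arrays and 2 were bright. Of the 35 dim targets that were above the floor on at least 1 array, 12 were higher and 23 lower, and 58.1% of all 2671 such dim genes were lower too, so nothing is read from this count.

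Markers of ESCs had high signals in both cultures, and fibroblast markers had signal as well. All 9 measured ESC markers of 10 were bright, and 6 of them were higher, where 50.2% of all bright genes were. The markers had a median difference of 0.18 and a range from -0.43 for Utf1 to 0.65 for Esrrb. The brightest were Dppa5a at 14.83 in overexpressing and 14.85 in control cells, Zfp42 at 14.09 in overexpressing and 13.78 in control cells, and Sox2 at 13.59 in overexpressing and 13.41 in control cells. Nanog, named after its value was seen, differed by 0.57 and lies in the chromosome 6 stretch, whose bright genes had a median of 0.37. Without the genes of the chromosome 14 and 6 stretches the median of the ESC markers was 0.13. Of 18 fibroblast markers 16 were measured and 11 were bright, with a median difference of 0.02. The brightest 3 were S100a4 at 11.16 in overexpressing and 10.88 in control cells, Col3a1 at 10.27 in overexpressing and 10.31 in control cells, and Col1a2 at 10.26 in overexpressing and 10.37 in control cells. Summed on the linear scale, the 16 gave signals of 9580 in overexpressing and 8986 in control cells, and none was at 0. The part of feeder RNA in the signals of the Polycomb genes was not tested. In bulk RNA, fewer cells of a type and less RNA per cell cannot be told apart.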

How the data were processed

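Labelled RNA made from total RNA with an Affymetrix 3' kit was measured, per the labels' protocols, with 1 array in each group. The authors deposited a log2 signal for each probe set on each array. The log2 scale was read from the range of values, with maxima of 15.26 for overexpression and 15.13 for control. The submitters' processing notes name MAS5 and affy, without version or role. The sources used here do not give a scaling target, and detection calls were not used. Values were compared as deposited.

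Of 16994 probe sets, 15273 had a single gene name, of which 15252 matched the RefSeq table of GRCm38.p6 through gene IDs. Another 501 had several names, 1156 none and 64 were controls, and these were left out. For each gene the probe set with the highest mean over both arrays was taken. The floor was the 25th percentile of each array, brightness its median, and counts used 2-fold and 1.5-fold thresholds. With 1 array per group no test was made, and precision is limited by that number. The rules were run on simulated data with planted differences past 2-fold in bright genes. That run does not bear on smaller differences, such as those of the members. Python 3.11.15, pandas 2.3.3 and statsmodels 0.14.6 were used.

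Members, lists and rules were chosen with earlier results of these data known. Genes named were all members, bright genes past 1.5-fold in a list (or its 2 of largest difference), bright targets past 2-fold and the 3 brightest markers of each kind, besides those said to be named after their values were seen. Alternatives were other scalings (centring, quantile, loess with a span of 0.3), floors, a pseudocount, brightness limits, averaged probe sets, unshared probe sets only (names not ending in _s_at, _x_at or _a_at), and bright list members alone. Leaving out the genes of 3 chromosomal runs and taking each probe set by itself were added after the data were examined.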

Additional observations from a re-analysis of the deposited data

How the results depend on the processing

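No paired analysis was possible because each group had a single array. The median difference of the PRC2 and partner genes ran from -0.02 to 0.07 over its alternatives, which did not all hold the same genes. Bright members alone left 8, and unshared probe sets only left out Ezh1, Jarid2, Rbbp4 and Cbx7. Where a floor was used, Cbx7 entered at 0. Many values of single members under an alternative could not move. Floor settings leave signals above the floor unchanged, and averaging leaves genes with a single probe set unchanged. Of all 76 values, these included, 72 moved by under 0.23, the SD between probe sets, so the count does not measure steadiness. The exceptions were Suz12, at 0.70 with probe sets averaged and 1.71 with only its dim unshared probe set left, and Cbx7, at 2.59 with no floor and 0.53 with a pseudocount, both from signals under the floor. Taken by itself, a dim Rnf2 probe set gave 0.40. The 86 and 73 bright genes at least 2-fold higher and lower became 153 and 226 with no brightness rule and 37 and 15 at the 75th percentile, and 44 were higher without the genes of the 3 runs. At 1.5-fold, the 261 higher and 375 lower became 526 and 870 with no brightness rule and 99 and 100 at the 75th percentile. The median of PR-DUB and PhoRC, 0 with all measured genes, was -0.30 with no floor, -0.28 with a pseudocount and -0.30 without the genes of the runs. With bright members alone, that of the CBX, PHC and SCM genes was -0.34 against 0.02, of other PRC2 subunits 0.28 against -0.10, and of developmental targets 0.54 against 0. The other PRC2 subunits stood at -0.34 on unshared probe sets only, when Epop was dropped. Neither median of the targets is read as a direction. Among the 8 bright ones the brightness rule fixed the directions of Hoxa10, Hoxa11, Pax6 and Cdx2. The 28 targets under the floor on both arrays were set to 0. With no brightness rule, which lets dim genes in, the counts could only rise. At the 75th percentile or without the genes of the runs they could only fall. The PR-DUB and PhoRC median of 0 was the value of Foxk1, under the floor on both arrays and so set to 0. Medians of bright members alone leave out the dim genes of a list. No further cause of the changed medians was tested. Dim genes were limited by signal near the floor.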
